A study of Daphnia magna with 48 samples.

Results

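In Daphnia magna, a freshwater crustacean (water flea) widely used in toxicity tests, 100 genes were chosen for expression that rose between day 1 and day 4 with the larger part of the rise after day 2, and they are described here across copper, arsenic, their mixture and unexposed animals, all measured in whole bodies. Each gene's level was taken as log2(CPM + 1), where CPM scales a count by its library's total (counts per M, M being mega), and averaged over the 16 libraries of a day, all treatments together. Of 16066 genes in the table, 10458 had a mean from 5 to under 1000 CPM, and 10398 of these also had a pooled standard deviation (SD) within groups under 1. Among these, 3739 were higher on day 4 than on day 1, and in 809 the step from day 1 to day 2 made up 0 to under 0.5 of the whole rise, a quantity called the early share below. The 100 with the largest rise were kept and ranked by it, rank 1 being the largest. The genes were thus selected on their day means of log2(CPM + 1), their mean level and their spread within groups, so the course over days is a description and carries no test. The last gene taken in rose by 0.570 on the log2 scale and the first one left out by 0.569.

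Animals of a field population were kept with copper, with arsenic, with copper and arsenic together (the mixture) or with neither (controls), and each treatment was sampled after 1, 2 and 4 days. Each of the 12 groups had 4 RNA-seq libraries made from total RNA of whole bodies, 48 in all. All animals, controls included, were kept in M4 medium with daily food under a 16:8 light:dark cycle. No source used here gives the doses, the age or genotype of the animals, or how many animals went into a library. It is also not stated whether the 4 libraries of a group stem from separate cultures, so p-values reflect only how those libraries differ, which may be technical. Total counts per library ran from 8.49 to 17.3 M on day 1, from 7.93 to 20.1 M on day 2 and from 8.84 to 17.4 M on day 4.

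Daphnia females reproduce largely by parthenogenesis, carry their eggs and embryos in a brood pouch, and moult each time a brood is released, so the expression of cuticle, yolk and digestive genes in a whole body is known to cycle with moulting and brood. Copper is an essential metal that becomes toxic in excess and is held in check by transporters and metal-binding proteins. Arsenic is a metalloid with no established need in animals, which binds sulphur groups of proteins. This is background and not a result. Of the gene identifiers, which all begin with Dapma7bEVm, 0 were found in the RefSeq gene table of assembly ASM2063170v1.1, and the deposited table does not pair them with names. No gene below could therefore be given a name, a function, a place in the genome or a sequence, and no marker list could be applied to the tissue. A few genes are given by identifier and the rest by rank. In whole-body RNA, more cells of a kind and more RNA per cell cannot be told apart.

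Every gene had a higher mean on day 4 than on day 1 because the rule required it. The rise was modest in most genes and large in a few. The mean level of the 100 genes on the log2(CPM + 1) scale was lowest 4.00, median 4.45 and highest 4.63 over the 16 libraries of day 1. On day 2 it was lowest 4.48, median 4.70 and highest 4.89, and on day 4 lowest 4.85, median 5.28 and highest 5.46. Days 1 and 4 did not overlap, and the lowest library of day 4 lay just inside the range of day 2. Summed over the 100 genes, the median library held 4670 CPM on day 1, 5475 CPM on day 2 and 8074 CPM on day 4. The 13 genes with a mean of 100 CPM or more supplied 60.3% of that sum on average, and the highest one, of rank 31 at a mean of 617 CPM, supplied 10.1%.

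**Figure D1:**
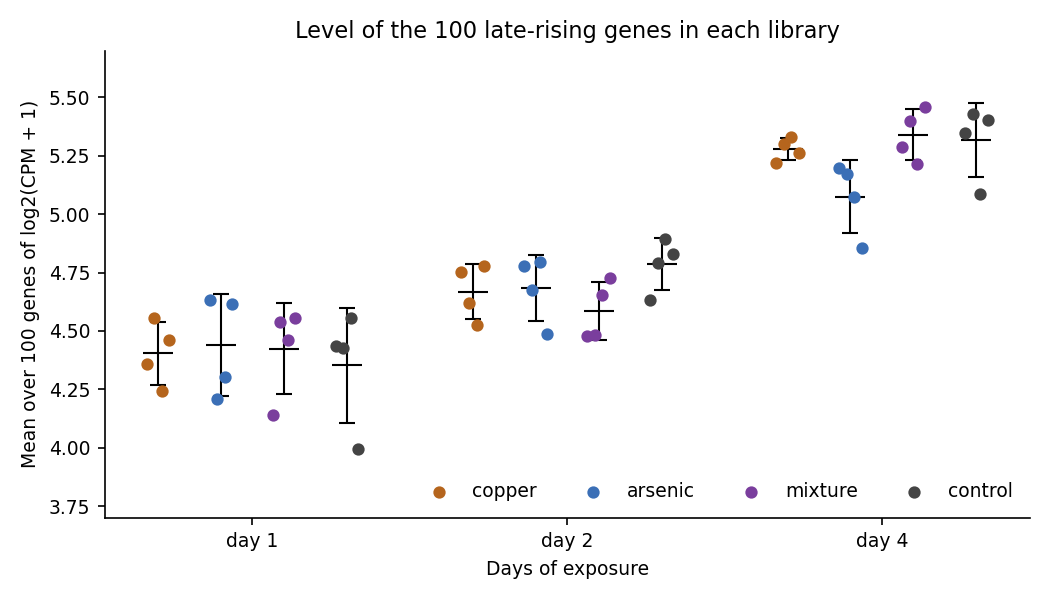
Mean of log2(CPM + 1) over the 100 genes in each of the 48 libraries (points), by day of exposure and coloured by treatment, with the mean and SD of each group of 4 (lines). The libraries of day 4 lie between 4.85 and 5.46, above every library of day 1 (4.00 to 4.63), and the arsenic libraries of day 4 have the lowest group mean of that day.

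Day 4 over day 1, the fold of CPM + 1 had a median of 1.64 over the 100 genes and ran up to 4.77. It was above 1.5 in 92 genes, above 2 in 22, above 3 in 4 and above 4 in 2. Mean levels ran from 5.34 to 617 CPM, with a median of 23.4 CPM against 33.4 CPM for the 10398 genes inside the limits of level and SD. The genes also varied more between libraries of a group than those genes did, with a median SD of 0.31 against 0.23 on the log2 scale. That comparison was not tested, and the choice by size of rise bears on it.

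The 2 genes with the largest rise were Dapma7bEVm023384t1 and Dapma7bEVm015305t1. Dapma7bEVm023384t1 was lowest 3.18, median 6.81 and highest 12.9 CPM on day 1. On day 2 it was lowest 6.0, median 12.8 and highest 29.4 CPM, and on day 4 lowest 19.7, median 37.9 and highest 79.1 CPM. Its days 1 and 4 did not overlap, while day 2 overlapped both. The steepest course was with arsenic, at 79.1, 39.96, 48.6 and 43.4 CPM on day 4 after 5.11, 3.18, 3.40 and 5.78 CPM on day 1. Controls of this gene were at 42.0, 24.6, 47.1 and 19.7 CPM on day 4 after 10.9, 7.02, 5.02 and 12.9 CPM on day 1.

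Dapma7bEVm015305t1 rose by nearly the same amount in every treatment. Its day 4 minus day 1 on the log2 scale was 2.08 with copper, 2.04 with arsenic, 2.05 with the mixture and 2.01 in controls. It was lowest 10.5, median 19.1 and highest 52.3 CPM on day 1. On day 2 it was lowest 22.6, median 34.98 and highest 60.7 CPM, and on day 4 lowest 58.1, median 84.5 and highest 201 CPM. Across the 100 genes, the spread of day 4 minus day 1 between the highest and lowest treatment had a median of 0.47 and was over 1 in 13 genes.

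For 7 genes, all 16 libraries of day 4 lay above all 16 of day 2, whatever the treatment, and for 22 all of day 4 lay above all of day 1 (0.114% and 0.563% of all 15813 genes tested). The rule used these day contrasts, so nothing is read from either count against its background. The 7 had ranks 7, 8, 13, 14, 22, 24 and 36. The gene of rank 13 was among the 3 steadiest of the set between libraries of a group. On day 4 it stood at 95.6, 88.4, 107 and 87.1 CPM with copper, at 104, 91.1, 85.3 and 93.4 CPM with arsenic, and at 104, 109, 122 and 111 CPM with the mixture. Its controls of day 4 stood at 83.4, 97.7, 88.2 and 94.8 CPM. Every one of these values exceeded the 48.02 to 78.6 CPM of day 2 and the 35.9 to 49.2 CPM of day 1, and the mixture libraries lay above the controls. The gene of rank 36 did the same at a higher level, with medians of 360 CPM on day 1, 420 CPM on day 2 and 638 CPM on day 4.

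The rise after day 2 took place over 2 days and the rise before it over 1 day, and this bears on how late the rise was. Over the 100 genes, the mean step was 0.28 from day 1 to day 2 and 0.57 from day 2 to day 4, both on the log2 scale. Per day of elapsed time these steps were 0.28 and 0.29. Measured per day, 45 of the 100 genes rose faster after day 2 and 55 did not. The rule thus holds genes that rose at an even pace beside genes that stayed level until day 2.

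Genes that stayed level until day 2 were the minority. The early share was under 0.1 in 12 genes, from 0.1 to under 0.25 in 15, from 0.25 to under 0.4 in 44 and from 0.4 to under 0.5 in 29. Rank 22 was the largest rise among the 12 with an early share under 0.1. Its median was 82.5 CPM on day 1, 82.5 CPM on day 2 and 165 CPM on day 4, and its 16 libraries of day 4 (114 to 221 CPM) lay above all of day 2 (71.3 to 106 CPM). Rank 44 had medians of 96.4, 94.0 and 168 CPM on days 1, 2 and 4. Rank 81, the lowest of the 12 in level, had medians of 5.17, 4.77 and 7.90 CPM on the same days.

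Within each treatment taken alone, the balance between the early and the late step differed. With copper the mean step of the 100 genes was 0.26 ± 0.18 before day 2 and 0.61 ± 0.13 after it, where the error combines the SDs of the mean level of the 100 genes in the 2 groups of 4 libraries. With arsenic the steps were 0.24 ± 0.26 and 0.39 ± 0.21, with the mixture 0.16 ± 0.23 and 0.76 ± 0.17, and in controls 0.43 ± 0.27 and 0.53 ± 0.19. These errors are SDs and not standard errors, and the steps are a description, since the rule used the days. The late step exceeded the early one in 80 of 100 genes with copper, 59 with arsenic, 93 with the mixture and 56 in controls. Per day of elapsed time, 53 genes rose faster after day 2 with copper, 37 with arsenic, 78 with the mixture and 25 in controls. The genes were correlated between libraries, so these counts are not 100 separate readings. Differences between treatments in the counts were not tested.

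**Figure D2:**
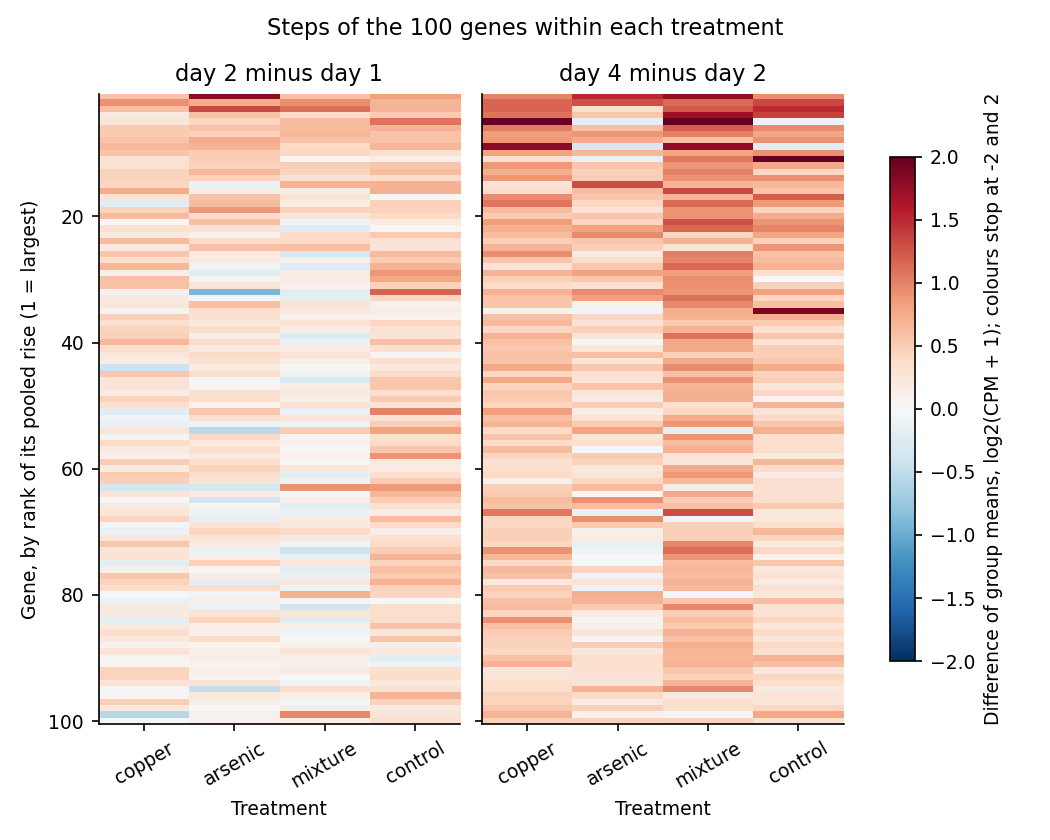
Step of each of the 100 genes from day 1 to day 2 (left) and from day 2 to day 4 (right) within each treatment, as the difference of group means of log2(CPM + 1) with 4 libraries a group; rows run from rank 1 at the top, and colours stop at -2 and 2. The late step is red in nearly all rows with copper and the mixture and palest with arsenic, and the rows of ranks 11 and 35 are dark in the control column of the late step.

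The early steps of controls and of the mixture each leaned on 1 library of day 1. Control replicate 4 of day 1 had the lowest level of all 48 (4.00, against a group mean of 4.35). It also had 479 genes with no count and a median correlation across genes with the other libraries of 0.92. Without it the early step in controls was 0.31 in place of 0.43. Without mixture replicate 1 of day 1, which lay 0.29 below its group mean, the early step of the mixture was 0.07 in place of 0.16. Leaving out any 1 library gave early steps of 0.21 to 0.31 with copper and 0.17 to 0.31 with arsenic. What set these libraries apart was not tested.

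The genes whose 4 libraries of day 4 all lay above the 4 of day 2 were also counted. They were 57 of 100 with copper (5.12% of all 15813 genes tested), 26 with arsenic (4.15%), 68 with the mixture (7.42%) and 41 in controls (3.06%). For day 2 above day 1 they were 15 with copper (2.85%), 11 with arsenic (2.33%), 6 with the mixture (3.02%) and 15 in controls (3.5%). The rule used these day contrasts, so nothing is read from the counts against their background. In 14 genes the libraries of day 4 lay wholly above those of day 2 in each of the 4 treatments (0.316% of all genes), which the rule favoured in the same way.

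In 98 of 100 genes the group means of day 4 were above those of day 1 in all 4 treatments. The other 2, of ranks 67 and 73, had a day 4 minus day 1 of -0.23 each with arsenic on the log2 scale. Rank 73 stood at 7.53, 9.83, 6.48 and 3.59 CPM with arsenic on day 4 after 10.1, 5.19, 7.45 and 9.23 CPM on day 1, so its arsenic libraries of the 2 days overlapped. The mean of day 4 was above that of day 2 in all 4 treatments for 84 genes, in 3 for 14 and in 2 for 2. Those last genes were ranks 5 and 9, which were higher with copper and the mixture. The rule averaged the day contrasts over these same 4 treatments and so favoured such counts, and nothing is read from them.

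Exposures were next compared with one another within a day. These contrasts are not those of the rule, which averaged the 4 treatments of a day with equal weight. A gene raised by 1 treatment on day 4 does have a higher mean on day 4, however, and could enter the set through that treatment, so the counts on day 4 are not independent of the choice. Each test was edgeR's two-sided quasi-likelihood test with 1 model for all 48 libraries, and p-values were adjusted by Benjamini-Hochberg over all 15813 genes tested. All 100 genes were tested, and those with an adjusted p under 0.05 are referred to as called. The 3 exposures of a day share the same 4 control libraries, so their values are given side by side and not as separate evidence.

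Where copper was present on day 4, 3 of the 100 genes were higher than where it was absent, and none was lower (0.0632% of all genes were called, in either direction). This comparison set the copper and mixture groups against the arsenic and control groups. All 3 genes left the set when the rule was applied without the copper libraries, so nothing is read from 3 against that share. Dapma7bEVm015179t1, of rank 5, had 46.0, 42.5, 44.0 and 49.0 CPM in the copper libraries and 13.6, 20.5, 28.4 and 27.6 CPM in the mixture libraries. It stood at 2.66, 4.72, 2.35 and 1.93 CPM with arsenic and at 2.94, 4.49, 5.23 and 4.67 CPM in controls. The copper libraries lay highest, the mixture libraries between, and the arsenic and control libraries overlapped below both. The fitted log2 fold change was 3.20 (SE 0.35, edgeR adjusted p 2.05e-07).

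Dapma7bEVm028938t1, of rank 9, had the same order of groups. On day 4 the copper libraries held 52.1, 37.8, 45.4 and 52.1 CPM and the mixture libraries 28.0, 22.8, 30.6 and 31.2 CPM. With arsenic it stood at 2.15, 8.74, 6.20 and 3.42 CPM, and in controls at 3.75, 4.87, 8.78 and 6.42 CPM. No library with copper present overlapped one without it. The log2 fold change was 2.75 (SE 0.25, edgeR adjusted p 1.87e-09).

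The third gene, of rank 67, changed less and stood at a higher level. On day 4 it was found at 87.8, 103, 118 and 118 CPM in copper libraries and at 75.7, 92.9, 87.8 and 83.4 CPM in mixture libraries. With arsenic it was at 45.8, 36.6, 28.8 and 25.3 CPM, and in controls at 56.0, 61.7, 42.9 and 52.5 CPM. Again the libraries with copper present lay above all others of that day, and the arsenic group mean was the lowest. The log2 fold change was 1.198 (SE 0.18, edgeR adjusted p 3.38e-04). All 3 calls held in all 55 alternatives tried, but most of these only left out a library of day 1 or 2, outside this comparison.

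**Figure D3:**
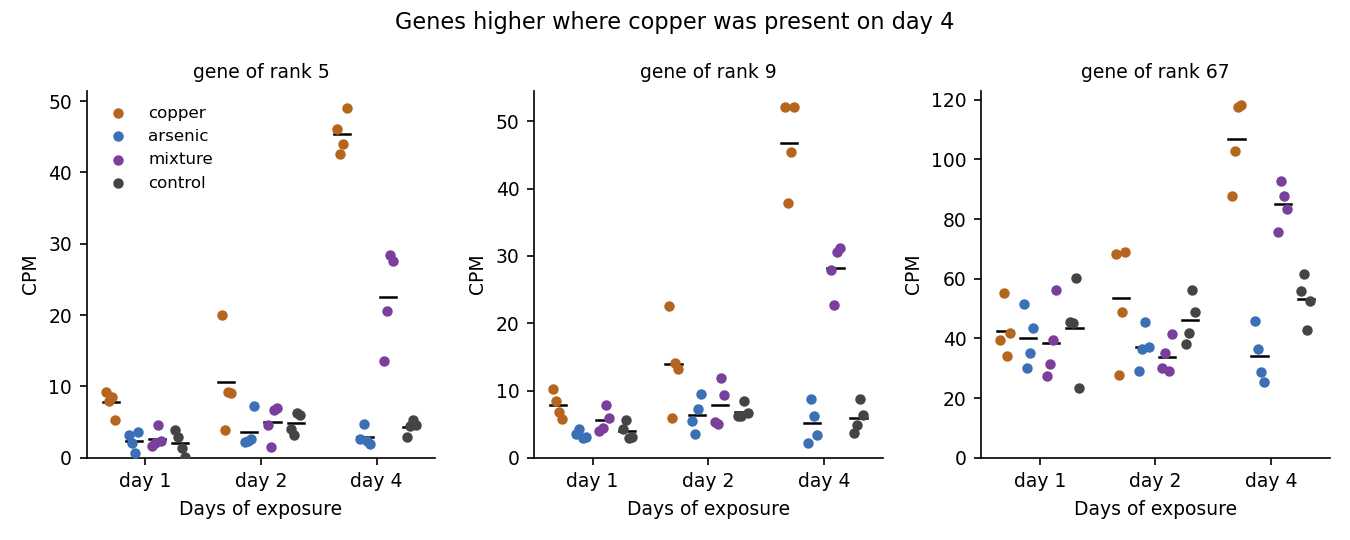
CPM of the genes of rank 5, 9 and 67 in each library (points) and the mean of each group of 4 (bars), by day and treatment, on linear axes that start at 0. On day 4 the copper and mixture libraries lie above all arsenic and control libraries in each panel, while on day 2 the groups overlap.

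Before day 4 none of these 3 genes was called in any comparison. On day 2, rank 9 was at 22.6, 5.89, 14.02 and 13.1 CPM in copper libraries and 5.26, 5.09, 11.8 and 9.32 CPM in mixture libraries, against 6.17, 6.16, 8.46 and 6.60 CPM in controls, and the groups overlapped. On day 1, the copper libraries held rank 5 at 9.20, 8.01, 8.51 and 5.32 CPM and the controls at 3.89, 2.92, 1.32 and 0.174 CPM. Those 4 copper libraries lay above the 4 controls, but the difference of 1.81 on the log2 scale was not called (SE 0.51, edgeR adjusted p 0.614), and the mixture was at 1.62, 2.14, 4.57 and 2.37 CPM. Rank 9 on day 1 was at 10.3, 8.49, 6.78 and 5.74 CPM with copper, above the 4.31, 5.68, 2.90 and 3.14 CPM of controls. That difference of 0.93 was not called either (SE 0.36, edgeR adjusted p 0.881), and the mixture was at 3.92, 4.44, 7.89 and 5.96 CPM.

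The membership of these 3 genes rested on the copper treatments. When the rule was applied without the copper libraries, ranks 5, 9 and 67 all left the set, and without the mixture libraries ranks 9 and 67 left it. For ranks 5 and 9, day 4 minus day 2 was 2.18 and 1.80 with copper and 2.06 and 1.78 with the mixture on the log2 scale. It was -0.17 and -0.34 with arsenic and -0.12 and -0.22 in controls. Whether a late rise differed from that of controls was tested directly, and neither gene was called (rank 9: copper 1.96, SE 0.49, adjusted p 0.948, and mixture 2.06, SE 0.49, adjusted p 0.409, edgeR).

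Against controls alone, copper on day 4 called 4 of the 100 genes, 2 higher and 2 lower (0.0696% of all genes). Each of the 4 left the set when the rule was applied without the copper or without the control libraries, so nothing is read from 4 against that share. The 2 higher ones were Dapma7bEVm015179t1 (log2 fold change 3.40, SE 0.50, edgeR adjusted p 2.53e-04) and Dapma7bEVm028938t1 (2.999, SE 0.36, adjusted p 3.75e-06). Rank 67 had a log2 fold change of 1.02 (SE 0.26) and an adjusted p of 0.294 there. The mixture on day 4 called 1 gene (0.0126% of all genes), Dapma7bEVm028938t1, with a log2 fold change of 2.23 (SE 0.35, edgeR adjusted p 0.00237). This gene left the set when the rule was applied without the mixture libraries. Without control replicate 1 of day 4 its adjusted p was 0.0591 at a log2 fold change of 2.06. Dapma7bEVm015179t1 had 2.37 (SE 0.49) and an adjusted p of 0.0528 with the mixture. Without control replicates 1 and 4 and mixture replicate 1, which stood apart in other genes, only 2 control libraries of day 4 were left. Dapma7bEVm015179t1 then had a log2 fold change of 3.22 with copper (SE 0.67, edgeR unadjusted p 2.22e-05, adjusted p 0.175). Dapma7bEVm028938t1 had 2.05 with the mixture (SE 0.47, edgeR unadjusted p 1.07e-04, adjusted p 1.0). Those 2 controls held 2.94 and 4.67 CPM of the first gene and 3.75 and 6.42 CPM of the second.

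The 2 genes that were lower with copper on day 4 were lower with arsenic too, and in both the mean of controls was carried by 2 high libraries. Dapma7bEVm028523t1, of rank 11, had 2.16, 2.88, 2.04 and 1.29 CPM in copper libraries and 1.14, 1.67, 2.00 and 1.14 CPM in arsenic libraries. With the mixture it stood at 14.3, 3.08, 2.20 and 2.51 CPM, and in controls at 129, 5.18, 2.70 and 55.4 CPM. Mixture replicate 1 and control replicates 1 and 4 stood apart from the other libraries of day 4, which lay between 1.14 and 5.18 CPM. On days 1 and 2 all 32 libraries lay between 0.399 and 3.12 CPM. The log2 fold change was -4.47 with copper (SE 0.70, edgeR adjusted p 4.2e-04) and -5.04 with arsenic (SE 0.72, adjusted p 2.5e-04), where 2 of the 100 genes were called (0.0632% of all genes).

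Dapma7bEVm011060t1, of rank 35, was high in the same 3 libraries. It stood at 5.14, 10.7, 7.58 and 7.65 CPM with copper, at 7.28, 6.27, 8.83 and 7.45 CPM with arsenic and at 47.98, 7.85, 9.04 and 8.16 CPM with the mixture. Controls of day 4 stood at 164, 7.90, 5.83 and 88.8 CPM. Apart from those 3 libraries, day 4 lay between 5.14 and 10.7 CPM, within reach of the 4.21 to 9.33 CPM of days 1 and 2. The log2 fold change was -3.04 with copper (SE 0.56, edgeR adjusted p 0.00602) and -3.20 with arsenic (SE 0.56, adjusted p 0.00326).

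**Figure D4:**
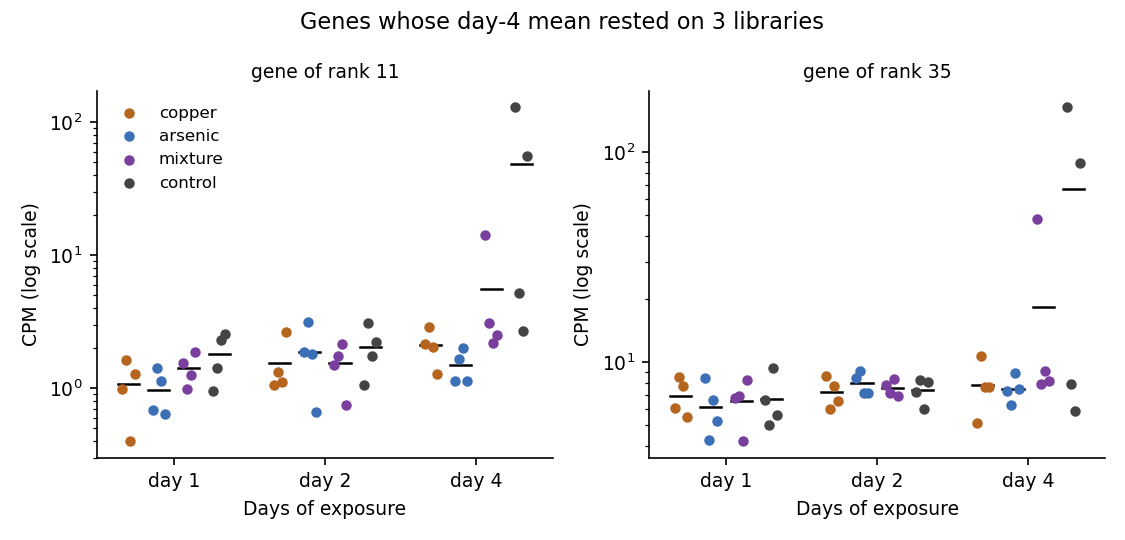
CPM of the genes of rank 11 and 35 in each library (points) and the mean of each group of 4 (bars), by day and treatment, on log axes. In both panels mixture replicate 1 and control replicates 1 and 4 of day 4 lie above every other library, and the remaining libraries of day 4 lie close to those of days 1 and 2.

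Without those 3 libraries, an alternative chosen after the values were seen, neither gene was called. Rank 11 then had log2 fold changes of -0.94 with copper (edgeR adjusted p 0.999) and -1.52 with arsenic (adjusted p 0.867). Rank 35 had 0.16 with copper and 0.0015 with arsenic (SE 0.27 and edgeR adjusted p 0.999 for both). Each of these values for rank 35 was smaller than its SE. The 3 libraries left out were the high ones in these genes, and only 2 controls of day 4 were left. The fit therefore cannot show that there is no difference. Without control replicate 1 alone, rank 35 had log2 fold changes of -2.12 with copper (edgeR adjusted p 0.384) and -2.28 with arsenic (adjusted p 0.19). Leaving out copper replicate 1 or 4 gave -2.88 and -3.04 with copper (edgeR adjusted p 0.0753 and 0.0518). In a fit of the 16 libraries of day 4 alone, neither gene was called with either metal, at folds close to those above. Rank 11 had -4.48 with copper and -5.05 with arsenic there (edgeR adjusted p 0.22 and 0.187), and rank 35 had -3.05 and -3.21 (adjusted p 0.606 and 0.217). Both genes left the set when the rule was applied without the control libraries, so nothing is read from their calls against the share of all genes. Over all 16 libraries of a day, the medians on days 1, 2 and 4 were 1.26, 1.74 and 2.35 CPM for rank 11 and 6.64, 7.45 and 7.88 CPM for rank 35.

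With arsenic on day 4 most of the 100 genes lay a little below controls. The median log2 fold change was -0.30 over the 100 genes, against 0.00 over all genes tested, and 89 of the 100 were below 0, against 49.4% of all. At an unadjusted p under 0.05, 16 genes were lower and 0 higher, against 4.94% of all genes that were lower. In 9 genes the 4 arsenic libraries lay below the 4 controls without overlap, against 1.41% of all genes. The 16 include ranks 11 and 35, and the 9 include rank 11. Both of these genes were in the set only through the control libraries, so they are no separate evidence of a lower level with arsenic. Leaving out 1 library at a time gave medians between -0.38 and -0.20. These genes were correlated between libraries, so they do not give 100 separate readings.

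Of the genes not called with arsenic on day 4, those of ranks 75 and 14 had the smallest p. Rank 75 stood at 13.7, 16.4, 14.7 and 16.9 CPM with arsenic, against 22.6, 26.4, 31.2 and 27.8 CPM in controls of day 4, without overlap (log2 fold change -0.88, SE 0.24, edgeR adjusted p 0.351). Rank 14 stood at 221, 231, 215 and 207 CPM with arsenic, against 300, 347, 235 and 313 CPM in controls, also without overlap (-0.53, SE 0.17, adjusted p 0.549). After rank 75, the largest difference among those at an unadjusted p under 0.05 but not called was that of rank 3 (-0.80, SE 0.34, edgeR adjusted p 0.585), with 12.5 ± 3.06 CPM with arsenic and 20.9 ± 3.92 CPM in controls (SD, n = 4 each).

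On the level of all 100 genes, the arsenic group of day 4 averaged 5.07 ± 0.16 on the log2 scale, with single libraries from 4.85 to 5.20. Controls of that day averaged 5.32 ± 0.16 and ran from 5.09 to 5.43 (SD, n = 4 each), so the groups overlapped. Copper averaged 5.28 ± 0.05 and the mixture 5.34 ± 0.11 (SD, n = 4 each), within the spread of controls. Where arsenic was present, which sets arsenic and mixture against copper and control, the median of the 100 genes on day 4 was -0.14 against 0.00 for all genes, and 0 genes were called by edgeR (0.0% of all genes) or DESeq2, with 11 at an unadjusted p under 0.05, against 5.24% of all genes. That median was -0.08 without control replicate 2 and -0.09 without mixture replicate 1 of day 4. The gene with the smallest p there was rank 11 (log2 fold change -1.87, SE 0.47, edgeR adjusted p 0.656).

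**Figure D5:**
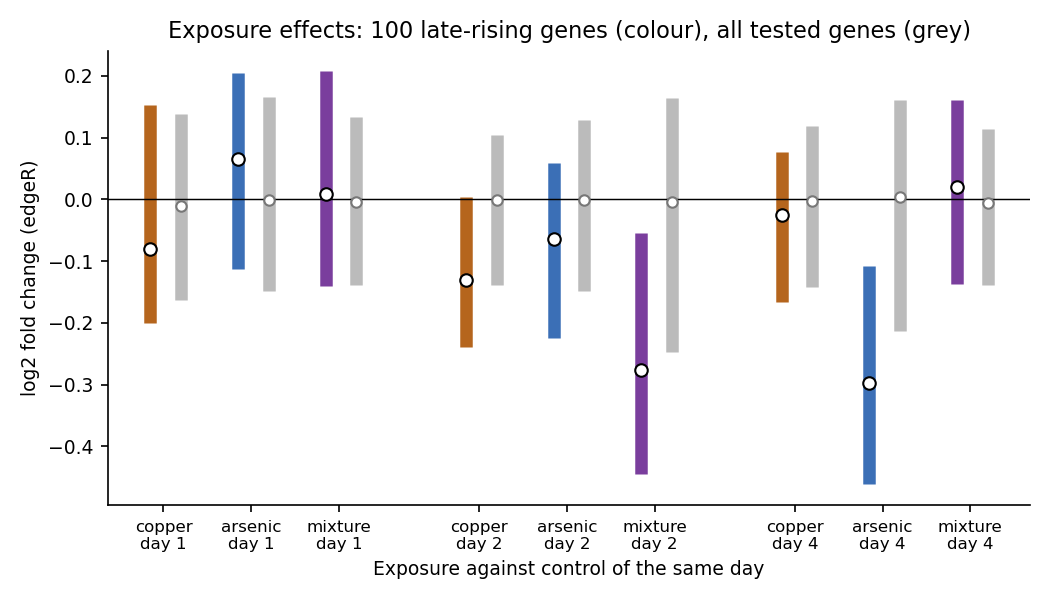
Median (open point) and quartiles (bar) of the fitted log2 fold change against controls of the same day, for the 100 genes (coloured) and for all 15813 genes tested (grey), by exposure and day. The medians of the 100 genes are -0.28 for the mixture on day 2 and -0.30 for arsenic on day 4, and the other 7 lie between -0.13 and 0.07.

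With the mixture on day 2 the 100 genes also lay below controls, before their main rise. The median log2 fold change was -0.28, against 0.00 over all genes tested, and 80 of the 100 were below 0, against 50.6% of all. At an unadjusted p under 0.05, 10 were lower and 0 higher, against 6.13% of all genes that were lower. In 8 genes the 4 mixture libraries lay below the 4 controls without overlap, against 3.55% of all genes. In 1 gene they lay above the controls without overlap. A gene lowered by the mixture on day 2 has a lower mean on day 2, so a small early share could take it into the set. On the level of all 100 genes, the mixture averaged 4.59 ± 0.12 and controls 4.79 ± 0.11 on the log2 scale (SD, n = 4 each).

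One gene was called with the mixture on day 2 (0.145% of all genes). Dapma7bEVm001407t1, of rank 33 and among the 5 highest of the set in level, stood at 210, 185, 219 and 198 CPM with the mixture, against 296, 290, 372 and 248 CPM in controls. The groups did not overlap. The log2 fold change was -0.60 (SE 0.13, edgeR adjusted p 0.03). The call was lost in 5 of 55 alternatives, but most of the 55 only left out a library that is in neither of these groups. Without control replicate 1 or 3 of day 2 the log2 fold change was -0.61 and -0.47 (edgeR adjusted p 0.0545 and 0.253). Without mixture replicate 1 or 2 it was -0.62 and -0.55 (adjusted p 0.16 and 0.245), and with the libraries of day 2 alone -0.59 (adjusted p 0.167). Copper and arsenic alone gave log2 fold changes of -0.09 and -0.21 on that day, neither called. By day 4 this gene had reached 443, 459, 435 and 417 CPM with the mixture, against 355, 462, 391 and 413 CPM in controls, and the groups overlapped.

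Late steps were compared between exposures and controls in the same model. The mixture's difference uses the mixture and control libraries of day 2 that were just compared, and with medians near 0 on day 4 it largely restates that comparison with its sign turned. The difference of late steps, mixture minus control, had a median of 0.28 over the 100 genes against 0.01 over all genes, and 76 of the 100 were above 0. With copper that median was 0.09, and with arsenic -0.21, where 74 of the 100 were below 0. Leaving out 1 library at a time gave medians of 0.20 to 0.39 with the mixture, 0.02 to 0.15 with copper and -0.31 to -0.13 with arsenic. The arsenic median was -0.13 without arsenic replicate 3 of day 2, while the copper median dropped to 0.02 once control replicate 3 of day 2 was left out, and to 0.04 once copper replicate 3 of that day was. Leaving out control replicate 1 or 3 of day 4 gave 0.03, control replicate 2 of day 4 gave 0.15, and copper replicate 4 of day 2 gave 0.14. For each of the 3 exposures, 0 of the 100 genes and 0.0% of all genes were called by edgeR. DESeq2 called 1 of the 100 genes for arsenic and 0 for copper and the mixture. At an unadjusted p under 0.05, 7 genes had a larger late step with the mixture and 3 a smaller one, against 2.78% and 2.69% of all genes. With arsenic 7 had a smaller one and 0 a larger one, against 1.97% of all genes that had a smaller one. With copper 3 had a larger and 2 a smaller one, against 2.14% of all genes in either direction. The gene with the smallest p was rank 11 with copper (-4.09, SE 0.98, edgeR adjusted p 0.948) and with arsenic (-4.90, SE 0.97, adjusted p 0.158), where the 3 high libraries enter, and rank 9 with the mixture. These differences share the exposed libraries of their days and the controls of days 2 and 4 with the comparisons above.

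In the remaining comparisons edgeR and DESeq2 called 0 of the 100 genes. Against controls on day 1, the medians of the 100 genes were -0.08 with copper, 0.07 with arsenic and 0.01 with the mixture. In each, 9 genes had an unadjusted p under 0.05, against 4.91%, 5.88% and 3.94% of all genes (0.0%, 0.0126% and 0.0253% of all genes were called). On day 2 they were -0.13 with copper and -0.06 with arsenic, with 4 and 7 such genes, against 1.68% and 3.64% of all (0.0% of all genes called in both). Copper present against absent had medians of -0.04 on day 1 and -0.14 on day 2, with 6 and 12 such genes, against 2.86% and 5.66% of all (0.0% and 0.0443% of all called). Arsenic present against absent had 0.04 on day 1 and -0.13 on day 2, with 11 and 12 such genes, against 4.85% and 7.32% of all (0.0316% and 0.00632% of all called). Copper present against absent on day 4, where 3 genes were called as given above, had a median of 0.13. There 78 of the 100 correlated genes were above 0, and the median was 0.09 without control replicate 3. The absent side holds the arsenic group, whose mean level was the lowest of that day. It was 5.07, against 5.28 with copper, 5.34 with the mixture and 5.32 in controls. For copper against controls alone on day 4, leaving out 1 library at a time gave medians of -0.10 to 0.05.

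The genes nearest to a call in those comparisons were Dapma7bEVm003213t1 (rank 13) for copper present on day 2 (-0.28 on the log2 scale, SE 0.09, edgeR adjusted p 0.393) and Dapma7bEVm000074t1 (rank 93) for arsenic present on day 1 (0.52, SE 0.14, adjusted p 0.514). Arsenic against controls gave Dapma7bEVm015585t1 (rank 53) on day 1 (0.61, SE 0.17, edgeR adjusted p 0.582) and Dapma7bEVm004796t1 (rank 65) on day 2 (-0.91, SE 0.30, adjusted p 1.00). The mixture gave Dapma7bEVm004920t1 (rank 89) on day 1 (-0.62, SE 0.22, edgeR adjusted p 1.00). Arsenic present on day 2 gave Dapma7bEVm001407t1 (-0.36, SE 0.09, edgeR adjusted p 0.291). Copper present on day 1 (0.81, SE 0.26) and copper against controls on day 2 (1.04, SE 0.35) gave Dapma7bEVm028938t1 (edgeR adjusted p 1.00 for both).

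Pairs of the 100 genes were more correlated between libraries of the same group than pairs of genes in general, on average. After the group means were taken out, the mean correlation of 2 genes of the set over the 48 libraries was 0.18, against 0.03 for the 10398 genes inside the limits of level and SD. Within days it was 0.22 on day 1, 0.14 on day 2 and 0.16 on day 4, against 0.02, 0.05 and 0.04. The share of the variance taken by the first principal component hardly differed, at 30.1% for the set and 28.8% for those genes over all days. By day it was 38.6% against 37.3% on day 1, 26.8% against 29.0% on day 2 and 28.0% against 27.6% on day 4. Genes share their library and its depth in such a correlation, and it is given as a description. The mean keeps the sign of each correlation. All 100 genes were chosen to rise over the days, while the 10398 hold genes that rose and genes that did not. That choice bears on the comparison, which was not tested. Single libraries stood high or low for much of the set at once. On day 1 mixture replicate 1 and arsenic replicate 2 lay 0.29 and 0.23 below their group means, and on day 4 control replicate 3 and arsenic replicate 4 lay 0.23 and 0.22 below.

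A few genes varied in another way. Rank 32, at a mean of 200.2 CPM, had an early share of 0.04 that averaged treatments of opposite direction before day 2. Its step from day 1 to day 2 was -0.91 with arsenic and 1.18 in controls on the log2 scale. With arsenic on day 2 it stood at 61.8, 96.6, 73.4 and 232 CPM after 200.4, 124, 247 and 213 CPM on day 1. Controls stood at 291, 157, 206 and 144 CPM on day 2 after 65.4, 74.0, 195 and 53.2 CPM on day 1. Libraries of 1 group differed several fold, and neither comparison of this gene on those days was called.

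Rank 99 entered through 4 low libraries of the earlier days. It stood at 4.80 CPM in mixture replicate 1 and 4.23 CPM in control replicate 3 of day 1, and at 9.22 CPM in copper replicate 4 and 4.69 CPM in control replicate 3 of day 2. The other libraries of those days lay between 45.5 and 90.9 CPM, and all 16 of day 4 between 57.0 and 75.2 CPM. Its medians on days 1, 2 and 4 were 58.0, 62.7 and 64.0 CPM, so most libraries changed little over the days. Ranks 11, 35 and 99 were the 3 genes of the set with the largest SD between libraries of a group.

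Other genes that followed the days shared some of these differences. The same rule with an early share of 0.5 to 1 gave 100 genes that rose mostly by day 2, and with a fall in place of a rise it gave 100 genes that fell mostly after day 2. With arsenic on day 4 the median log2 fold change against controls was -0.30 in the late-rising genes, -0.32 in the early-rising and 0.12 in the late-falling ones. With the mixture on day 2 it was -0.28 in the late-rising genes, -0.24 in the early-rising and 0.31 in the late-falling ones. The early-rising genes thus lay below controls to about the same extent and the late-falling ones lay above. The differences between these sets were not tested, and nothing in these values is particular to the late-rising genes.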

How the data were processed

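RNA-seq libraries of whole Daphnia magna (48, in 12 groups of 4) were analysed from 1 deposited table of counts per gene and library. TopHat2 2.1.1, HTSeq and edgeR were named in the submitters' processing notes, without role or order. Neither the genome build nor the annotation or strand setting is given in the sources used here. Although named as normalised, the deposited values were whole numbers that behaved as raw counts: a score of the gaps that rescaling leaves was at most 3.28 as deposited, against at least 5.59 after rescaling by 0.9.

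The 100 genes were chosen on CPM from column totals with a pseudocount of 1. The genes, lists and tests were chosen with earlier results of these data known. Genes with at least 14 counts in at least 4 libraries were tested, which were 15813, and 253 were left out. In edgeR 4.0.16 (R 4.3.3), 1 model of the 12 groups with TMM factors (0.913 to 1.09) and the quasi-likelihood test gave 18 comparisons. The common biological coefficient of variation was 23.5% and the residual degrees of freedom were 36. The steps were tested on simulated data. Identifiers without names leave near-identical or overlapping genes unmarked, so each single gene carries that uncertainty. CPM values carry counting error, which grows as counts fall, and the lowest count behind a printed value was 2.

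Named genes were the 2 with the largest rise and, per comparison, up to 2 called in each direction or, where none was called, the one with the smallest p. Others given by rank were chosen after their values were seen. Replicates of a group differed beyond sampling noise in all 72 pairs (chi-square per degree of freedom 9.32 or more). Replicate numbers recur in every group, but same-numbered libraries did not vary together (mean correlations of -0.009, 0.04 and -0.042 on days 1, 2 and 4), so they were not paired. Alternatives were no filter, DESeq2 1.42.0 and its size factors, library totals, a replicate block, a day alone, other pseudocounts, and leaving out each library.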

Additional observations from a re-analysis of the deposited data

Results flagged for a closer look

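Dixon's 95% critical value of 0.829 was applied to 228 groups of 4 libraries, which are the 12 groups of each gene whose single libraries were looked at and of the mean level of the 100 genes. In 18 of them the gap of the highest or lowest library to the nearest of the others was a larger part of the range, against 11.4 by chance, which gives about 1 in 20. Some of these genes were chosen after their values were seen, and all share the same libraries. Nothing is therefore read from 18 against 11.4.

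Of the genes high in 3 libraries of day 4, Dapma7bEVm028523t1 was at 14.3 CPM in mixture replicate 1 of day 4, against 2.20 to 3.08 CPM in the other 3 libraries. It was at 2.66 CPM in copper replicate 4 of day 2, against 1.046 to 1.32 CPM. Dapma7bEVm011060t1 was at 47.98 CPM in mixture replicate 1 of day 4, against 7.85 to 9.04 CPM. Of the genes higher with copper, Dapma7bEVm015179t1 was at 7.27 CPM in arsenic replicate 4 of day 2, against 2.27 to 2.66 CPM. Dapma7bEVm015305t1, of rank 2, was at 22.6 CPM in arsenic replicate 3 of day 2, against 33.2 to 34.6 CPM.

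Mixture replicate 1 of day 1 was low in 3 genes. It held 4.87 CPM of Dapma7bEVm004796t1, against 11.6 to 12.7 CPM, and 12.4 CPM of Dapma7bEVm000074t1, against 21.0 to 21.6 CPM. The third was Dapma7bEVm010312t1, of rank 99, at 4.80 CPM against 54.7 to 60.2 CPM. That gene was also at 4.23 CPM in control replicate 3 of day 1, against 60.4 to 69.5 CPM, at 9.22 CPM in copper replicate 4 of day 2, against 65.1 to 70.2 CPM, and at 62.2 CPM in control replicate 2 of day 4, against 69.7 to 71.1 CPM.

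Dapma7bEVm004920t1 was at 31.2 CPM in copper replicate 3 of day 1, against 48.3 to 49.7 CPM. It was at 35.7 CPM in mixture replicate 3 of day 2, against 46.6 to 48.1 CPM, and at 77.6 CPM in mixture replicate 1 of day 4, against 66.8 to 68.6 CPM. Dapma7bEVm000074t1 was at 26.7 CPM in arsenic replicate 2 of day 2, against 19.3 to 19.4 CPM. Dapma7bEVm000995t1, of rank 32, was at 195 CPM in control replicate 3 of day 1, against 53.2 to 74.0 CPM. Dapma7bEVm015585t1 was at 27.3 CPM in mixture replicate 2 of day 2, against 19.1 to 20.4 CPM, and Dapma7bEVm003977t1 was at 7.06 CPM in copper replicate 2 of day 1, against 3.86 to 4.22 CPM. What set these libraries apart was not tested.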

How the results depend on the processing

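Of the 55 alternatives of each comparison, none changed the 3 genes called for copper present against absent on day 4. Most of the 55 only left out a library of day 1 or 2, outside that comparison. With the libraries of a day alone, the genes called were 2 for copper against control, day 4, 0 for arsenic against control, day 4, 0 for mixture against control, day 2, and 2 for mixture against control, day 4. Another alternative, chosen after seeing the data, left out control 1, control 4 and mixture 1 of day 4. With only 2 controls of day 4 left, it called 1 gene for copper, 0 for arsenic and 0 for the mixture on day 4. Dapma7bEVm011060t1 then had log2 fold changes of 0.16 with copper and 0.0015 with arsenic, each smaller than its SE. DESeq2 called 3 for the mixture on day 4 and 1 for late rise, arsenic against control. Leaving out 1 library at a time gave 0 to 1 for copper present against absent, day 2, 1 to 2 for arsenic on day 4, 0 to 1 for the mixture on day 2, 0 to 4 for the mixture on day 4 and 0 to 2 for the late rise with arsenic. The mixture on day 4 had 4 without mixture replicate 1 and 0 without control replicate 1 of that day, and the late rise with arsenic had 2 without control replicate 2 or 3 of day 4. The replicate block gave 1 gene for arsenic against control, day 4, and 3 for copper, in place of 2 and 4, while the numbers did not pair the libraries. For Dapma7bEVm011060t1 it gave log2 fold changes of -2.28 with copper (edgeR adjusted p 0.413) and -2.53 with arsenic (adjusted p 0.188). Leaving out 1 library at a time gave medians over the 100 genes of -0.38 to -0.20 for arsenic on day 4 and -0.35 to -0.24 for the mixture on day 2. It gave 0.09 to 0.17 for copper present on day 4 and -0.18 to -0.08 for arsenic present on day 4. All 3 medians against controls on day 1 changed sign when some libraries were left out. The cause of the changed counts was not tested.

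The set itself depended on which libraries entered the rule. Of the 100 genes (members shared with the 100), 89 to 98 stayed when 1 library was left out, 96 with TMM-scaled CPM, 96 and 80 with pseudocounts of 0.5 and 5, and 97 with no limit on the SD. Without all libraries of a treatment, 77 (copper), 68 (arsenic), 65 (mixture) and 72 (control) stayed. Scalings moved the median of all genes by at most 0.0745 on the log2 scale.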
